A study of Homo sapiens with 15 samples.

Results

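Long noncoding RNAs are transcripts that are processed like messenger RNAs but carry no long reading frame, and those made from genes that lie between protein-coding genes receive a symbol that starts with LINC. Some act on neighbouring genes from the site of their own transcription, others bind proteins or microRNAs elsewhere in the cell, and most have no established role. CASC15, a cancer susceptibility transcript beside the transcription factor gene SOX4, belongs to the same class under a symbol of its own. The group described here holds 94 genes of the 12147 tested. It is made of 93 genes with a LINC symbol whose mean over all 15 arrays was at least 4.5 on the log2 scale, and CASC15. The arrays carried a probe set for 458 LINC genes.

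The members were chosen by their mean level over all arrays, so the level itself is a description. The last members inside the limit were LINC00511 (mean 4.53), LINC00200 (4.52) and LINC01134 (4.52), and the first genes outside it were LINC00629 (4.49), LINC00226 (4.49) and LINC00939 (4.47). All 94 passed the filter on dim probe sets. In 73 of the 93 LINC genes every group mean lay at or above the limit, while 20 had a group mean below it. Among these 20, LINC00920, LINC00693, LINC00997 and LINC00858 were called in a clone, so their place in the group rests on the groups in which they were high. Their calls remain in the counts given below. CASC15 was chosen because it was higher in every clone, and its values carry no p and enter no count.

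RNA came from BT474, an established HER2-amplified line of human breast cancer cells, and from 4 of its clones that resist T-DM1 (trastuzumab emtansine). This drug couples a HER2 antibody to a poison of microtubules. The clones, labelled C#1, C#2 and C#3 and, for the last, C#6, were grown from single cells after prolonged T-DM1 exposure and then kept for 3 months in 5 nM of it. The labels do not say if the drug was still there when RNA was taken, or how long the parental cells were cultured. Each of the 5 groups had 3 arrays. They are labelled as biological replicates but not said to be separate cultures, so p-values measure only the spread between these samples. Each clone is 1 clone of 1 line. Effects of resistance, of cloning and of long drug culture cannot be told apart, and fewer transcripts per cell cannot be told from fewer cells with the transcript.

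The 40th percentile of the arrays lay between 3.56 and 3.62, the median between 4.03 and 4.10, and the upper quartile between 5.94 and 5.96 in parental arrays and between 5.80 and 5.89 in clone arrays (log2). Across probe sets, which are not independent, arrays of 1 group correlated at 0.985 to 0.993 and arrays of different groups at 0.975 to 0.991. The 13 measured markers of luminal breast epithelium had a list mean of 9.08 to 9.09 per parental array and 8.64 to 9.01 per clone array, and the measured markers of basal epithelium, fibroblasts, endothelium and leukocytes had list means between 2.69 and 3.92. Single luminal markers differed both ways. GATA3, a transcription factor of luminal cells, was at 9.12 in parental cells and at 6.23, 5.98, 8.36 and 6.77 in clones 1, 2, 3 and 6, while TFF1, a secreted peptide of luminal cells, was at 10.81 and at 11.51, 11.97, 11.40 and 12.32. The part of these markers in the results below was not tested.

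Of the 93 LINC genes, 65 did not pass the test in any clone, and those that did were mainly lower than in the parental line. In clone 1, 13 of the 93 LINC genes fell (14.0%, against 11.2% of all genes tested) and 3 rose (3.23%, against 6.03%), called at an adjusted p below 0.05 with limma and Benjamini-Hochberg adjustment over all genes. In clone 2, 14 fell (15.1% against 11.5%) and 4 rose (4.30% against 5.47%). In clone 3, 8 fell (8.60% against 11.0%) and 3 rose (3.23% against 6.22%), and in clone 6, 16 fell (17.2% against 14.7%) and 4 rose (4.30% against 7.73%). With the values as deposited, these shares were near those of all genes in both directions. Most called changes were smaller than 2-fold. At that size 2, 2, 0 and 1 of the 93 fell and 0, 0, 1 and 0 rose in clones 1, 2, 3 and 6. Of all 12147 genes tested, 97, 117, 123 and 194 fell and 48, 50, 41 and 72 rose at that size.

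The median log2 change of the 93 genes was -0.03, -0.05, 0.01 and -0.03 in clones 1, 2, 3 and 6, beside -0.02, -0.02, 0.00 and -0.02 over all genes tested. At least 1 clone changed 28 of the 93 genes (30.1%, against 37.5% of all genes). In all 4 clones 6 fell (background 3.65%) and 0 rose (background 1.04%). The 4 comparisons share the parental arrays, so a chance deviation of those arrays enters each of them. With renewed quantile normalization of the arrays the split in clone 3 was 3 higher and 5 lower, and in clone 6 it was 8 higher and 15 lower.

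**Figure D1:**
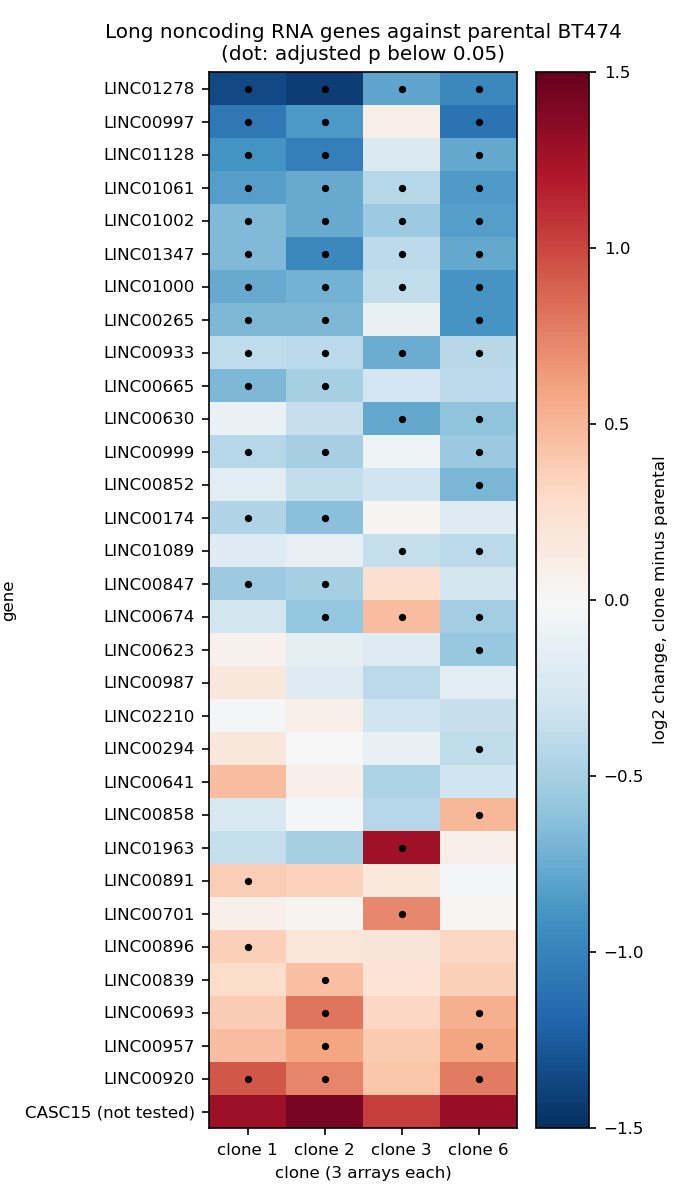
Log2 change against parental BT474 (colour) in each clone (columns) for CASC15 and the 31 LINC genes that passed the test in a clone or differed among the clones (rows, sorted by mean change). A dot marks an adjusted p below 0.05, and the upper rows show that LINC01278, LINC01061, LINC01002, LINC01347, LINC01000 and LINC00933 were called lower in all 4 clones.

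**Figure D2:**
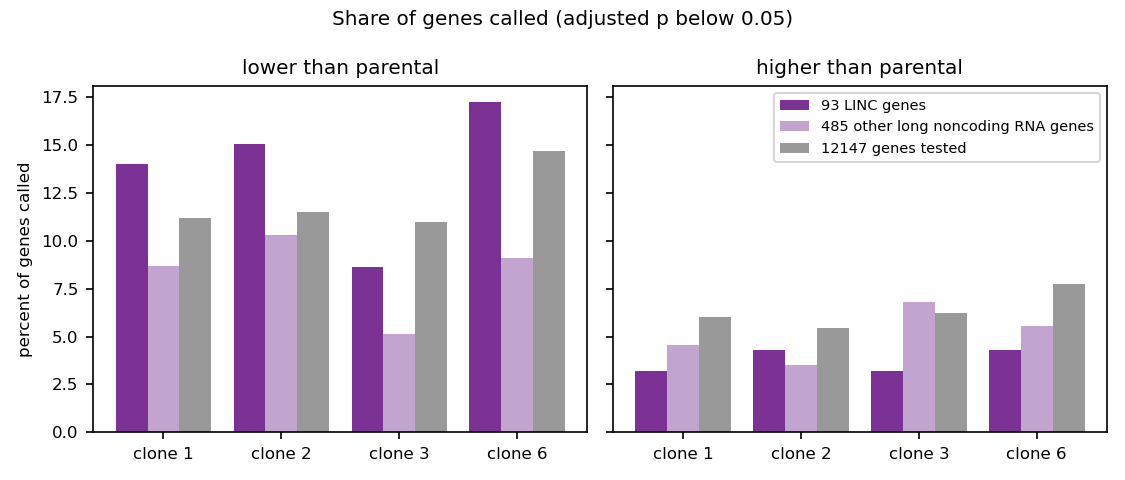
Percent of genes called lower (left) and higher (right) than parental in each clone, for the 93 LINC genes, for 485 other long noncoding RNA genes and for all 12147 genes tested. In clone 6, 17.2% of the LINC genes and 14.7% of all genes were called lower.

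The share of genes called depended on the signal of the probe set. Of the 39 LINC genes with a mean between 4.5 and 5, 4 were called in at least 1 clone (10.3%), beside 22.8% of all genes tested in that range. Between 5 and 6 it was 11 of 32 (34.4% against 36.0%), and between 6 and 8 it was 6 of 14 (42.9% against 50.2%). At 8 or more, 7 of 8 were called (87.5% against 55.5%), all 7 of them lower and none higher. Of all 2059 genes tested in that range, 701 were called lower and 481 higher in at least 1 clone. The 8 brightest were LINC00987, LINC01347, LINC01000, LINC00999, LINC01061, LINC00933, LINC01002 and LINC00265, and only LINC00987 among them was not called against the parental line. The brightness of a probe set also depends on its probes, so these ranges describe signal and not the number of transcripts. Whether probe sets of these 8 genes share signal from near-identical copies was not tested, so the 7 calls may not be separate results.

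CASC15 was higher in every clone. Its 3 parental arrays read 5.38, 4.93 and 5.20 (log2), and the lowest clone array, in clone 3, read 5.89. Clone 1 had 6.82, 6.07 and 6.47, clone 2 had 6.74, 6.51 and 6.53, clone 3 had 6.69, 6.04 and 5.89, and clone 6 had 6.93, 6.14 and 6.38. No clone array overlapped the parental ones. The log2 change was 1.29, 1.43, 1.03 and 1.31 in clones 1, 2, 3 and 6, or 2.44-, 2.69-, 2.05- and 2.48-fold (SE 0.23), and lay between 0.79 and 1.53 when any 1 array was left out. Its neighbours in RefSeq gene order did not share this size of change. SOX4 changed by 0.13, 0.26, -0.26 and -0.02 (SE 0.15) and NBAT1, a long noncoding RNA gene of the same locus, by 0.40, 0.30, 0.15 and 0.27 (SE 0.14). Neither was called in any clone. Beyond NBAT1, DCDC2 (parental mean 3.79) fell in every clone, by 0.53, 0.40, 0.66 and 0.58 (SE 0.09). Beyond SOX4, CDKAL1 was called only in clone 6, a fall of 0.35. The promoter that RefSeq gives for CASC15 (GRCh38.p14, chr6:21666163-21666462, plus strand, 250 bases before to 50 after the start) is shown for its CpG content, with the bases of each of its 19 CG pairs in capitals.
CASC15: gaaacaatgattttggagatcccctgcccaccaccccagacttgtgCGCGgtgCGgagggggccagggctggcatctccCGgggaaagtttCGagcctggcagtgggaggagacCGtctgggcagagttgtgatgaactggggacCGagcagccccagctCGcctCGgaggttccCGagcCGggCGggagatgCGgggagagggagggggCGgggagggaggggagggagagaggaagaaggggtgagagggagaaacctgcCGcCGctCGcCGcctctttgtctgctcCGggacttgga

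**Figure D3:**
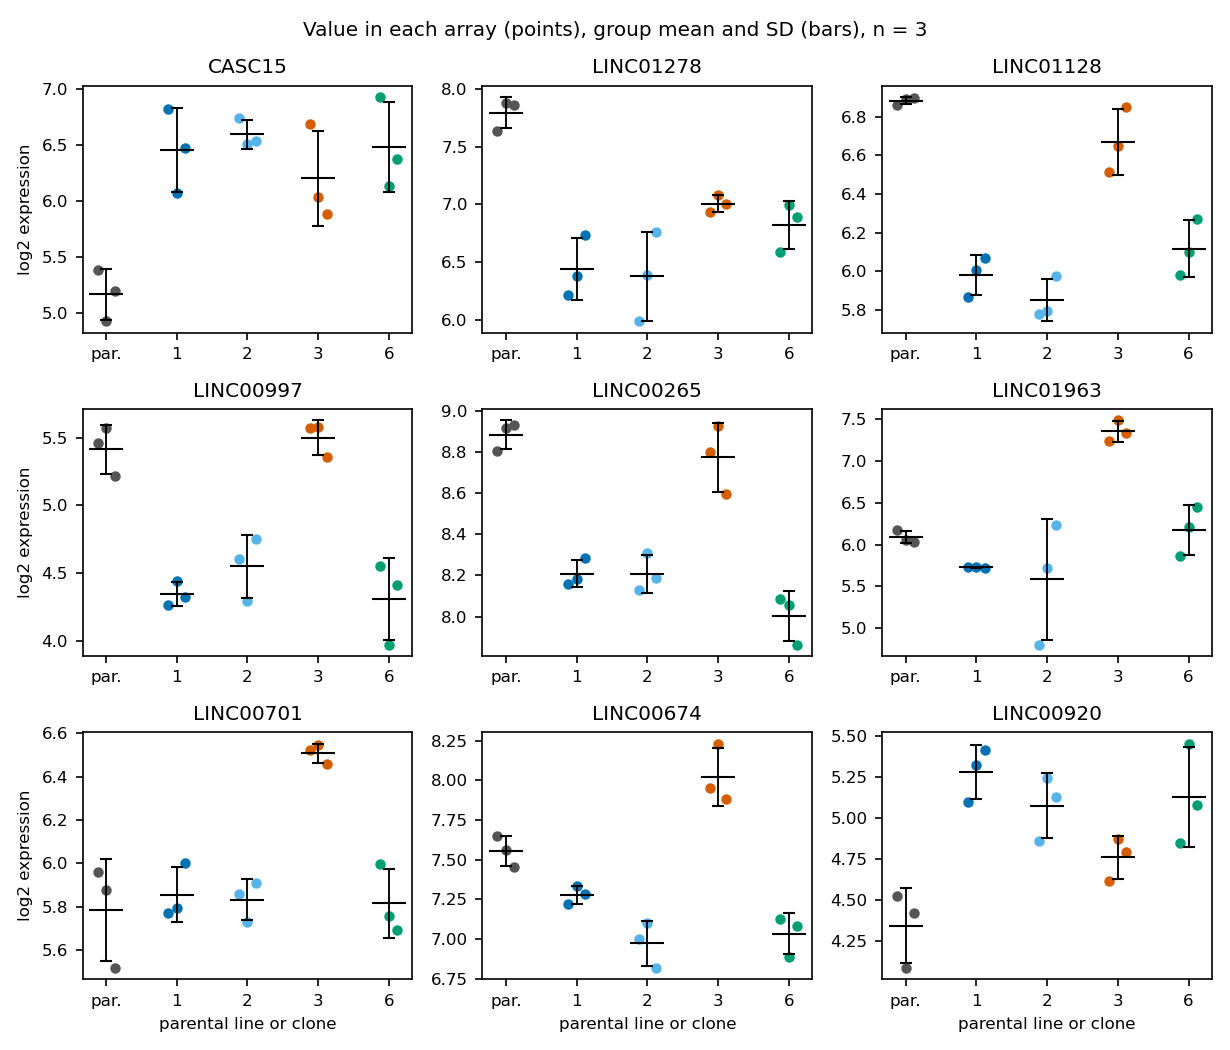
Log2 expression in each array (points) of 9 genes, by parental line (par.) and clone, with the group mean and SD (bars, n = 3). The axes differ between genes, do not start at 0 and show that LINC01963 and LINC00701 stand high in clone 3 alone, while LINC00997, LINC00265 and LINC01128 are low in clones 1, 2 and 6.

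LINC01278, from the X chromosome, had the largest fall of the group. Its parental arrays read 7.64, 7.88 and 7.86, those of clone 1 6.21, 6.38 and 6.73, and those of clone 2 5.99, 6.39 and 6.76. Clone 3 had 6.93 to 7.08, and clone 6 had 6.59, 6.99 and 6.89. All 12 clone arrays lay below the lowest parental array. The fall was 2.55-fold in clone 1 (log2 change -1.35, SE 0.17, limma adjusted p = 7.74e-05), 2.67-fold in clone 2 (-1.41, adjusted p = 4.35e-05), 1.72-fold in clone 3 (-0.79, adjusted p = 0.00475) and 1.96-fold in clone 6 (-0.97, adjusted p = 0.000709). Clone 2 lay lower than clone 3 by 0.63 (adjusted p = 0.0193). None of these 4 calls against the parental line was lost when any 1 array was left out. Of its adjacent genes, FAAH2, a fatty acid amide hydrolase, rose by 0.40 in clone 1 and fell by 0.41 in clone 3, and MIR1468 rose by 0.46 in clone 6. AMER1, a Wnt pathway regulator 1 gene further along, fell in all 4 clones (-0.53, -0.43, -0.64 and -0.48, SE 0.14). UBQLN2, beyond FAAH2 on the other side, was not called in any clone (0.03, 0.03, 0.17 and 0.04). The RefSeq promoter of LINC01278 (GRCh38.p14, chrX:63561046-63561345, minus strand) holds the E-box motif, shown in capitals.
LINC01278: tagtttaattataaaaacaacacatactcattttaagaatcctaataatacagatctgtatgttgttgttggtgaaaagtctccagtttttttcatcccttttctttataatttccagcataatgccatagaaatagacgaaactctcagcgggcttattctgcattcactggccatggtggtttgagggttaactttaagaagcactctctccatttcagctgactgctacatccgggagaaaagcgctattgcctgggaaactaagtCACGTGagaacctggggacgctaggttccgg

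The motif is a description of the letters and not a binding site. Of 78 promoters found for 69 of the 94 genes, 4 (5.13%) held CACGTG on either strand, beside 7.26% of all 35116 promoters of the same length in the table. The other motifs searched on both strands were AGATAA, bound by GATA factors (11.5% against 10.3%), TATAAA (12.8% against 11.5%) and CCAAT (43.6% against 34.6%). LINC01278 is in the counts for both CACGTG and TATAAA. Of the 78 promoters, 52 (66.7%) held at least 10 CG pairs, beside 56.4% of all promoters in the table.

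LINC01061 and LINC01002 fell in all 4 clones and have near-identical promoters. LINC01061 (chromosome 4) read 10.39, 10.51 and 10.65 in parental cells, and its clone arrays lay between 9.52, in clone 6, and 10.23, in clone 3. It fell by 0.83, 0.76, 0.43 and 0.85 in clones 1, 2, 3 and 6 (SE 0.12, limma adjusted p = 0.000245, 0.000446, 0.0222 and 9.96e-05). LINC01002 (chromosome 19) read 9.25, 9.32 and 9.55 in parental cells and between 8.30 and 8.92 in the clones. It fell by 0.66, 0.75, 0.54 and 0.83 (SE 0.14, adjusted p = 0.00292, 0.00118, 0.0113 and 0.000363). For both genes every clone array lay below every parental array. The call in clone 3 was lost without clone 3 replicate 3 or parental replicate 3 for each gene, and for LINC01061 also without parental replicate 2 (adjusted p up to 0.112 for LINC01061 and 0.0638 for LINC01002) and with the mean of its probe sets (-0.34).

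The 2 promoters are printed to show how alike these genes are: over the 275 bases that align, 270 are identical and 5 differ (98.2% identity), and the differing bases are in capitals. The LINC01061 promoter is chr4:119410611-119410910 and that of LINC01002 chr19:202160-202459, both on the minus strand of GRCh38.p14.
LINC01061: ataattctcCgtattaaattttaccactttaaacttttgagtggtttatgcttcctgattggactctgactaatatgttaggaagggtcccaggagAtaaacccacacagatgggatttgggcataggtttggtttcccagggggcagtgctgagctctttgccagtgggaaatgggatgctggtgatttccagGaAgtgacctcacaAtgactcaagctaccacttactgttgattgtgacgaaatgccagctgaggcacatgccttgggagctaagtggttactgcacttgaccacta
LINC01002: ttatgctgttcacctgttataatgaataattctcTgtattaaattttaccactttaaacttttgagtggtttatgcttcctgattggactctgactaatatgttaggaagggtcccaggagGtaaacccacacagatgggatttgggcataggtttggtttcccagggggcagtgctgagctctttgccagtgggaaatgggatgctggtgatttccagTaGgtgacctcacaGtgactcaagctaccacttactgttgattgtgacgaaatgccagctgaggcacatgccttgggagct

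RefSeq promoters of LINC01001, LOC100132287, LOC107985355, LOC100132062 and LOC107986794, on 4 other chromosomes, belong to the same family (96.7% to 99.7% identical to 1 of these 2). None of those genes had a probe set under its own symbol here. The probe sequences were not used here, so how the signal divides among such copies was not tested, and the values of LINC01061 and LINC01002 are uncertain as to the copy. No RefSeq promoter was found for LINC01347, LINC01000 or LINC00999, so their likeness to other copies was not examined. The chromosome and neighbours given for a gene are those of RefSeq, and the position of each probe set was not examined. LINC01061 had 7 probe sets. The 5 brightest of them fell together, by 0.71 to 0.85 in clone 1, 0.68 to 0.88 in clone 2, 0.32 to 0.44 in clone 3 and 0.67 to 0.85 in clone 6. With the mean of all 7 the clone 3 call was lost (-0.34). WASH5P, a transcribed pseudogene next to LINC01002 in gene order, fell too, by 0.74, 0.72, 0.75 and 1.07 (SE 0.21).

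LINC01347 (chromosome 1) read 11.39, 11.47 and 11.57 in parental cells, 10.81, 10.72 and 10.92 in clone 1 and 10.65, 10.28 and 10.62 in clone 2. In clone 3 it read 11.14, 11.20 and 10.91, and in clone 6 10.94, 10.52 and 10.66. All clone arrays were below the parental ones, with clone 3 the nearest to them. The log2 change was -0.66, -0.96, -0.39 and -0.77 (SE 0.13, limma adjusted p = 0.00201, 0.000103, 0.0452 and 0.000436). Leaving out any 1 of 8 arrays, all 3 parental arrays among them, ended the call in clone 3 (adjusted p up to 0.177). It was also lost without the dim filter, with quantile normalization and with the mean of probe sets (-0.14). The other 5 probe sets of LINC01347 did not agree in size: changes ran from -0.81 to -0.01 in clone 1, from -0.69 to 0.24 in clone 3 and from -0.80 to -0.22 in clone 6. The second brightest changed by -0.20, -0.15, 0.24 and -0.25, opposite in sign to the called change in clone 3.

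LINC01000 (chromosome 7) read 10.90, 11.11 and 11.18 in parental cells, and its clone arrays lay between 9.95, in clone 6, and 10.80, in clone 3, with no overlap. It fell by 0.76, 0.70, 0.37 and 0.88 (SE 0.12, limma adjusted p = 0.00048, 0.000848, 0.0463 and 7.43e-05). Leaving out any 1 of 11 arrays ended the clone 3 call (adjusted p up to 0.177), parental replicates 2 and 3 and the 3 clone 3 arrays among them. That call was also lost without the dim filter, with quantile normalization, with the replicate block and with the mean of probe sets (-0.16). Its second probe set fell alike (-0.70, -0.72, -0.40 and -0.87), and the third changed by -0.15, -0.11, 0.29 and 0.00. In RefSeq order, the genes on either side of LINC01000 went the other way where they were called. The position of its probe sets was not examined, so whether the falling ones read this locus is uncertain. HILPDA, a lipid droplet protein induced by low oxygen, rose by 0.34, 0.37, 0.62 and 0.74 (SE 0.11), and CALU, a calcium-binding protein of the endoplasmic reticulum, by 0.35 in clone 3 and 0.77 in clone 6.

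LINC00933 (chromosome 15) was lowest in clone 3. Its parental arrays read 9.27, 9.20 and 9.28, and those of clone 3 read 8.58, 8.58 and 8.38. Clone 1 had a mean of 8.87 ± 0.23 (SD, n = 3), clone 2 had 8.77, 8.82 and 8.95, and clone 6 had 8.75, 8.83 and 8.90, all below parental. The log2 change was -0.38, -0.40, -0.74 and -0.42 in clones 1, 2, 3 and 6 (SE 0.11, limma adjusted p = 0.0281, 0.0205, 0.000341 and 0.0126). Clone 1 exceeded clone 3 by 0.36 (adjusted p = 0.0363), while the F test among the clones gave an adjusted p of 0.0669. The calls in clones 1 and 2 were each lost without any 1 of 4 arrays, parental replicates 1 and 3 in both, and that in clone 1 also with only the 6 arrays of the comparison. All 4 were lost with the mean of its probe sets (-0.25, -0.14, -0.26 and -0.20), since the second set, at 4.22 in parental cells, changed by -0.13, 0.12, 0.22 and 0.03. In clone 3 both flanking genes fell, the pseudogene UBE2Q2P1 by 0.55 and the zinc finger gene ZSCAN2 by 0.42.

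A second group of 4 genes fell in clones 1, 2 and 6 but was not called in clone 3. LINC00997 (chromosome 7) read 5.46, 5.57 and 5.22 in parental cells, 4.26, 4.44 and 4.32 in clone 1, 4.30 to 4.75 in clone 2, 5.57, 5.58 and 5.35 in clone 3, and 4.55, 3.97 and 4.41 in clone 6. Clone 3 overlapped the parental arrays and the other clones did not. The log2 change was -1.07, -0.86, 0.09 and -1.10 (SE 0.15, limma adjusted p = 0.000185, 0.000925, 0.761 and 7.03e-05). Clone 3 exceeded clone 6 by 1.19 (adjusted p = 0.000101), clone 1 by 1.16 and clone 2 by 0.95. LINC00997 had a group mean below the limit of 4.5, so its place among the members rests on the groups where it was high. Its falls and these differences are thus no independent result. LINC01128 (chromosome 1) read 6.86, 6.89 and 6.90 in parental cells and 5.87, 6.01 and 6.07 in clone 1. It read 5.78, 5.79 and 5.98 in clone 2, 6.51, 6.65 and 6.85 in clone 3, and 5.98, 6.10 and 6.27 in clone 6. All clone arrays lay below the parental ones, those of clone 3 nearest to them. The change was -0.90, -1.03, -0.21 and -0.76 (SE 0.11, adjusted p = 5.19e-05, 1.4e-05, 0.211 and 0.000116), and clone 2 lay below clone 3 by 0.82 (adjusted p = 9.69e-05).

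LINC00265 (chromosome 7) read 8.80, 8.92 and 8.93 in parental cells and 8.80, 8.93 and 8.60 in clone 3, which overlap. Clones 1, 2 and 6 read from 7.86 to 8.31, below all parental arrays. The change was -0.68, -0.68, -0.11 and -0.88 (SE 0.10, limma adjusted p = 0.000383, 0.000375, 0.54 and 2.02e-05), and clone 3 exceeded clone 6 by 0.78 (adjusted p = 0.000177). A second probe set of LINC00265, at 7.51 in parental cells, changed by only -0.02, 0.02, 0.13 and 0.02. LINC00999 (chromosome 10) read 10.30, 10.44 and 10.49 in parental cells and 9.70 to 10.13 in clones 1, 2 and 6, with clone 3 again overlapping at 10.38, 10.39 and 10.26. It changed by -0.42, -0.50, -0.07 and -0.56 (SE 0.11, adjusted p = 0.0177, 0.00636, 0.762 and 0.00216), and the clone 1 call was lost without clone 1 replicate 2 or parental replicates 2 or 3. Its other 3 probe sets changed by -0.31 to -0.81 in clones 1, 2 and 6.

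**Figure D4:**
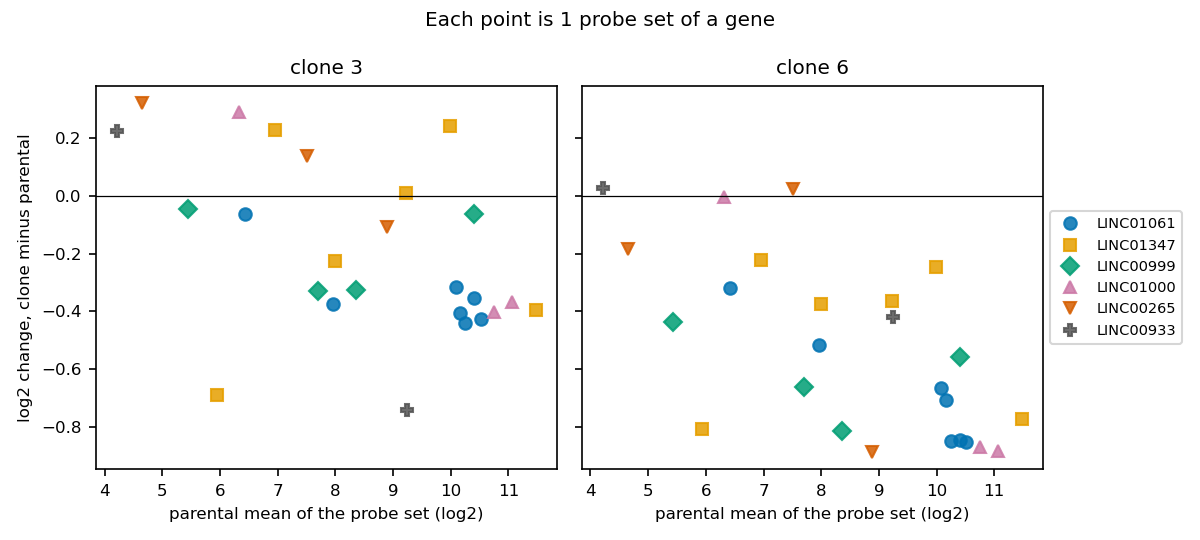
Log2 change in clone 3 (left) and clone 6 (right) of every probe set of 6 genes (symbols), against the mean of that probe set in the parental arrays (log2). The 5 probe sets of LINC01061 above 10 lie together, between -0.32 and -0.44 in clone 3 and between -0.67 and -0.85 in clone 6, while those of LINC01347 and LINC00265 spread.

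Fewer members rose. LINC00920 (chromosome 16) read 4.52, 4.09 and 4.42 in parental cells, 5.10, 5.32 and 5.42 in clone 1, 4.86, 5.24 and 5.13 in clone 2, 4.62, 4.87 and 4.80 in clone 3, and 4.85, 5.46 and 5.08 in clone 6. All clone arrays exceeded the parental ones. The change was 0.94, 0.73, 0.42 and 0.78 (SE 0.16, limma adjusted p = 0.000721, 0.00421, 0.0816 and 0.00185), called in all but clone 3. The parental means of LINC00920 (4.34) and of LINC00693 (4.49) lay below the limit of 4.5. The rule thus took both in through the clones, so their share in the counts of rises is no independent result. Neither neighbour, APOOP5 nor CMTM1, was called in any clone. LINC00693 (chromosome 3) changed by 0.39, 0.80, 0.31 and 0.53 (SE 0.18) and was called in clone 2 (adjusted p = 0.00665), where the arrays read 5.37, 5.53 and 4.96 against 4.37, 4.28 and 4.80 in parental cells, and in clone 6 (adjusted p = 0.0469), where 1 array read 4.80, as did the highest parental one. That call was lost without any 1 of 8 arrays (adjusted p up to 0.173), clone 6 replicates 2 and 3 and parental replicates 1 and 2 among them, and without the dim filter, after median centring and with the replicate block. The second probe set of LINC00693, at 4.69 in parental cells, changed by only 0.19, 0.13, 0.21 and 0.16. LINC00957 (chromosome 7) rose by 0.59 in clone 2 and in clone 6 (SE 0.20, adjusted p = 0.0495 and 0.0405), lost without any 1 of 10 and of 4 arrays, each parental array in both, and in clone 2 also without the dim filter and with the mean of probe sets (0.35). Its neighbour DBNL, an actin-binding adaptor, fell in clones 1, 2 and 6, by 0.34, 0.54 and 0.34.

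The remaining rises were in 1 clone each and small. LINC00896 rose by 0.36 in clone 1 (SE 0.11, limma adjusted p = 0.0307), LINC00891 by 0.37 in clone 1 (SE 0.12, adjusted p = 0.0446), LINC00839 by 0.45 in clone 2 (SE 0.14, adjusted p = 0.0404) and LINC00858 by 0.49 in clone 6 (SE 0.17, adjusted p = 0.0494). These calls were lost without any 1 of 5, 10, 4 and 8 arrays respectively, parental replicates 1 and 2 in all of them. Without such an array the adjusted p reached 0.128, 0.198, 0.147 and 0.225. LINC00891 was also not called with trend and robust eBayes or with only the 6 arrays of the comparison, nor LINC00858 without the dim filter or after median centring.

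Clone 3 stood apart in 3 genes that rose there. LINC01963 (chromosome 2) read 6.17, 6.06 and 6.04 in parental cells, 7.24, 7.48 and 7.34 in clone 3, 5.73, 5.74 and 5.72 in clone 1, 4.81, 5.72 and 6.23 in clone 2 and 5.86, 6.21 and 6.45 in clone 6. Clone 3 lay above all other arrays. It exceeded parental 2.41-fold (log2 change 1.27, SE 0.24, limma adjusted p = 0.00183), clone 2 by 1.77 (adjusted p = 0.000111), clone 1 by 1.63 and clone 6 by 1.18. Its change was -0.36, -0.50 and 0.08 in clones 1, 2 and 6, not called. The adjacent XRCC5, a DNA repair gene, and RPL37A, a ribosomal protein gene, were called in no clone. Beyond XRCC5, PECR rose by 0.51 in clone 3 and fell by 0.58 in clone 6. Beyond RPL37A, IGFBP5 fell in every clone, by 0.98, 0.93, 0.77 and 0.59 (SE 0.17). LINC00701 (chromosome 10) read 5.96, 5.88 and 5.52 in parental cells and 6.52, 6.54 and 6.46 in clone 3, and between 5.69 and 6.00 in clones 1, 2 and 6. It rose by 0.72 in clone 3 (SE 0.12, adjusted p = 0.000785) and exceeded clone 6 by 0.69 (adjusted p = 0.00168).

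LINC00674 (chromosome 17) was the only member called in opposite directions (1 of 93, 1.08%, beside 1.25% of all genes tested). It read 7.65, 7.56 and 7.46 in parental cells, 7.95, 8.23 and 7.88 in clone 3, 6.82 to 7.10 in clone 2 and 7.13, 6.89 and 7.09 in clone 6, with no overlap of any of these clones with parental. It rose by 0.47 in clone 3 (SE 0.11, limma adjusted p = 0.00971) and fell by 0.58 in clone 2 and 0.52 in clone 6 (adjusted p = 0.00209 and 0.00324). The fall of 0.28 in clone 1 was not called. The rise was lost without clone 3 replicate 2 or parental replicate 3 (adjusted p up to 0.0519), and with the mean of both probe sets (0.28), the second of which changed by 0.10 in clone 3.

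In clones 1 and 2, LINC00665, LINC00174 and LINC00847 fell. LINC00665 (chromosome 19), a transcript studied in breast cancer that can encode a small peptide, read 7.95, 7.91 and 8.15 in parental cells, 7.34, 7.22 and 7.43 in clone 1 and 7.76, 7.52 and 7.25 in clone 2. It fell by 0.67 and 0.49 (SE 0.15, limma adjusted p = 0.00621 and 0.0361), and in clones 3 and 6, also below every parental array, the changes of -0.29 and -0.40 were not called. Its second probe set changed by -0.46, -0.58, -0.55 and -0.76, and the mean of both was called in clones 3 and 6 as well (-0.42 and -0.58). The call in clone 2 was lost without clone 2 replicates 2 or 3 or any parental array, and with quantile normalization. LINC00174 (chromosome 7) fell by 0.45 and 0.62 (SE 0.14, adjusted p = 0.035 and 0.00561), the former lost without any 1 of 5 arrays, all 3 parental ones among them. LINC00847 (chromosome 5) fell by 0.55 and 0.50 (SE 0.14, adjusted p = 0.01 and 0.0173). Both calls of LINC00847 were lost without parental replicate 1, and that in clone 2 also without clone 2 replicate 2. Its second probe set, at 3.74 in parental cells, changed by 0.52 in clone 2, so that the mean of both was 0.012. In clone 1 the mean of both was -0.24, which was not called.

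In clones 3 and 6, LINC00630 and LINC01089 fell. LINC00630 (X chromosome) read 6.54, 6.66 and 6.39 in parental cells, 5.99, 5.90 and 5.40 in clone 3 and 6.07, 5.83 and 5.91 in clone 6, with no overlap. It fell by 0.77 and 0.60 (SE 0.15, limma adjusted p = 0.00272 and 0.0103), and clone 1 exceeded clone 3 by 0.67 (adjusted p = 0.00669). Its neighbour TCEAL8 rose by 1.31 and 1.10 in clones 1 and 2 and fell by 1.32 in clone 3. LINC01089 (chromosome 12), described in breast cells as a transcript that restrains metastasis, read 5.39, 5.66 and 5.76 in parental cells, 5.32, 5.31 and 5.13 in clone 3 and 5.23, 5.29 and 5.07 in clone 6. It fell by 0.35 and 0.41 (SE 0.11, adjusted p = 0.0363 and 0.0134), calls lost without any 1 of 5 and of 3 arrays, parental replicates 2 and 3 in both. The call in clone 3 was also lost with quantile normalization, with trend and robust eBayes and with only the 6 arrays of the comparison. The adjacent RHOF, a small GTPase gene, fell by 0.92 and 0.45 in the same clones.

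In clone 6 alone, LINC00852, LINC00623 and LINC00294 passed the test. LINC00852 (chromosome 3) read 5.41, 5.66 and 5.19 in parental cells and 4.79, 4.77 and 4.66 in clone 6, a fall of 0.68 (SE 0.15, limma adjusted p = 0.00392). LINC00623 (chromosome 1) read 5.84, 5.71 and 5.67 against 5.16, 5.11 and 5.22, a fall of 0.57 (SE 0.11, adjusted p = 0.00115), and clones 1, 2 and 3 exceeded clone 6 by 0.63, 0.42 and 0.38 (adjusted p = 0.00107, 0.0175 and 0.0341). The RefSeq promoter of LINC00623 is 98.6% identical to that of LINC01138 over 218 aligned bases, so its signal too is uncertain as to the copy. LINC00294 (chromosome 11) fell by 0.39 (SE 0.12, adjusted p = 0.0238), a call lost without clone 6 replicate 1 or any parental array (adjusted p up to 0.112), with quantile normalization and with only the 6 arrays of the comparison.

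Among the clones, the F test called 20 of the 93 LINC genes as different (21.5%, beside 22.5% of all genes tested). Clones 1 and 2 differed in 0 of them by limma, beside 0.00% of all genes tested. At an unadjusted limma p below 0.05 these 2 clones differed in 8 of the 93, beside 807 of all 12147 genes tested. Clones 1 and 3 differed in 18 (19.4% against 16.8%), clones 2 and 3 in 14 (15.1% against 15.8%), clones 3 and 6 in 12 (12.9% against 9.01%), clones 1 and 6 in 8 (8.60% against 12.7%) and clones 2 and 6 in 3 (3.23% against 11.2%). In the pairs with clone 3, the LINC genes called higher in clone 3 were 13 of 18 against clone 1, 12 of 14 against clone 2 and 11 of 12 against clone 6. Among all genes tested these were 1051 of 2041, 1068 of 1914 and 602 of 1095 calls, so that 8.65%, 8.79% and 4.96% of all genes were called higher in clone 3.

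LINC00987, LINC00641 and LINC02210 differed among the clones without a call against the parental line. LINC00641 (chromosome 14) read 7.20, 7.38 and 7.40 in parental cells, 7.68, 7.68 and 7.99 in clone 1 and 6.99, 7.15 and 6.43 in clone 3, so that clone 1 lay above and clone 3 below the parental arrays. The changes of 0.46 and -0.47 were not called (limma adjusted p = 0.0687 and 0.0624), and clone 1 exceeded clone 3 by 0.93 (adjusted p = 0.00102). LINC00987 (chromosome 12) read 11.82, 11.76 and 11.89 in parental cells, 12.02, 11.82 and 12.16 in clone 1 and 11.62, 11.38 and 11.27 in clone 3. Clone 1 exceeded clone 3 by 0.58 (adjusted p = 0.00793). LINC02210 (chromosome 17) was higher in clone 2 than in clone 6 by 0.43 (adjusted p = 0.0356).

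The 62 LINC genes called neither against the parental line nor among the clones changed by -0.73 to 0.37 in clone 1, -0.60 to 0.33 in clone 2, -0.40 to 0.44 in clone 3 and -0.90 to 0.46 in clone 6, with a median SE of 0.14. The lowest values in clones 1 and 6 belong to LINC00173, named after its values were seen. It read 5.25, 5.53 and 5.70 in parental cells, 5.28, 4.26 and 4.74 in clone 1 and 5.53, 4.79 and 3.46 in clone 6, and its spread within groups was wide (SE 0.43). LINC00511 and LINC00673, which have been studied in several cancers, were among the 62. LINC00511 changed by -0.13, -0.10, 0.14 and -0.08 (SE 0.11) and LINC00673 by 0.08, 0.07, 0.23 and 0.28 (SE 0.11). All these values are of a gene's brightest probe set. A second set of LINC00664, also named after its values were seen, was at 3.61 in parental cells. It changed by 0.93, 0.76, 1.03 and 0.26 in clones 1, 2, 3 and 6, while the brightest changed by 0.34, 0.15, 0.44 and 0.06. The second set was not tested.

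Genes next to a called member were called in the same comparison and direction in some cases. Summed over clones, 51 falls of members had 102 adjacent tested genes, of which 22 fell too (21.6%), 11 rose and 69 were not called. In clones 1, 2, 3 and 6 the adjacent genes that fell were 4 of 26 (15.4%), 5 of 28 (17.9%), 6 of 16 (37.5%) and 7 of 32 (21.9%), beside the shares of all genes of 11.2%, 11.5%, 11.0% and 14.7%. The 14 rises of members had 28 adjacent genes, of which 1 rose and 4 fell. The same neighbours recur across clones and the clones share the parental arrays, so these sums count some genes repeatedly. Neighbours follow the RefSeq position of a symbol, and whether each probe set reads that locus was not examined.

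CDK13, a kinase gene that acts on transcription, lies next to LINC00265 on chromosome 7 and fell by 0.48, 0.62 and 0.83 in clones 1, 2 and 6 (SE 0.11, limma adjusted p = 0.00521, 0.000901 and 4e-05), and changed by -0.27 in clone 3, where it was not called. RALA, on the other side, fell only in clone 6 (-0.32), and YAE1 beyond it fell in clones 1, 2 and 6 by 0.56, 0.77 and 0.62. MPLKIP, beyond CDK13, was not called in any clone (-0.09, -0.24, -0.09 and -0.23). KBTBD2, next to LINC00997, fell in all 4 clones, by 0.47, 0.70, 0.37 and 0.78 (SE 0.12), while LINC00997 itself was not called in clone 3. KCTD7, next to LINC00174, fell by 0.57 and 0.49 in clones 1 and 2 and rose by 0.57 in clone 3, where LINC00174 changed by 0.04. Whether copy number differs between the clones was not tested.

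**Figure D5:**
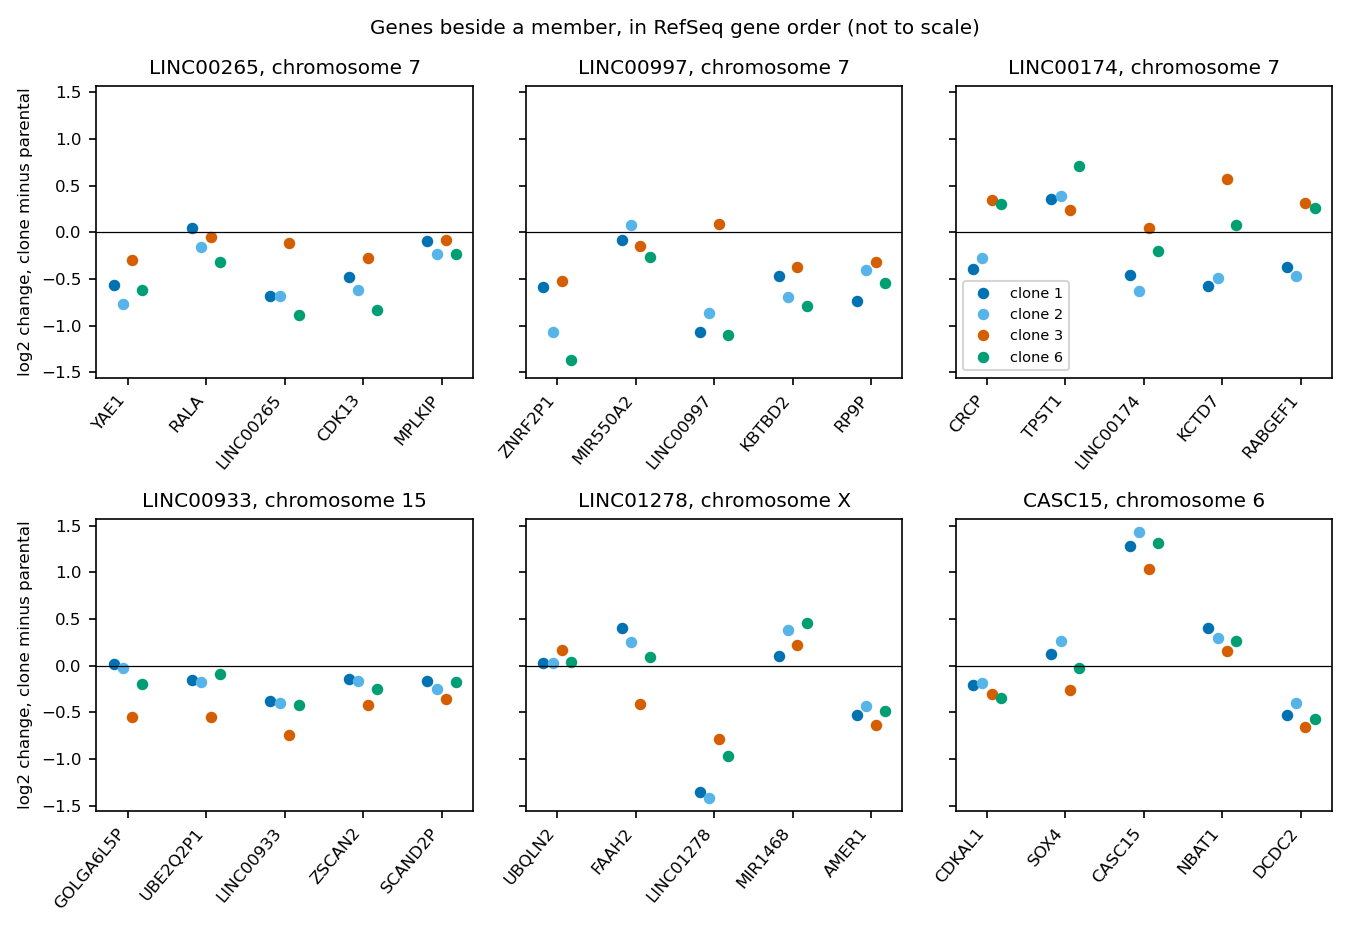
Log2 change against parental in clones 1, 2, 3 and 6 (coloured points) of 6 genes and of the nearest tested genes on either side, in RefSeq gene order and not to scale. CDK13 and YAE1 lie at similar values to LINC00265 in clones 1, 2 and 6, whereas SOX4 and NBAT1 reach at most 0.40 beside CASC15. In clones 1, 2 and 6 RALA and MPLKIP changed less than LINC00265, and DCDC2 fell beside CASC15.

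A list of other long noncoding RNA genes gives the context (antisense, intronic, divergent and small RNA host genes, and known long noncoding RNAs), of which 485 of 691 with a probe set passed the filter. In clones 1, 2, 3 and 6, 42, 50, 25 and 44 of them fell and 22, 17, 33 and 27 rose, with median changes of -0.01, -0.01, 0.06 and 0.00. The falls were 8.66%, 10.3%, 5.15% and 9.07% of the list, against 11.2%, 11.5%, 11.0% and 14.7% of all genes tested. The rises were 4.54%, 3.51%, 6.80% and 5.57%, against 6.03%, 5.47%, 6.22% and 7.73%. In all 4 clones 13 changed in 1 direction (2.68%, against 4.68% of all genes tested), 10 lower and 3 higher. PCAT6, a transcript named for prostate cancer, fell by 1.08, 1.03, 1.15 and 0.87 (SE 0.13), and PSMG3-AS1 by 1.53, 1.72, 0.85 and 1.29 (SE 0.15). SNHG15, a small nucleolar RNA host gene, fell by 1.10, 0.67, 0.61 and 0.99 (SE 0.13), SH3BP5-AS1 by 0.63, 0.80, 0.73 and 0.82 (SE 0.19) and GABPB1-IT1 by 0.60, 0.79, 1.01 and 1.26 (SE 0.15). URB1-AS1 rose by 0.71, 0.64, 0.55 and 0.71 (SE 0.12). Whether a probe set of an antisense gene also overlaps its partner was not examined here.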

How the data were processed

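Total RNA of 15 samples was hybridised to Affymetrix gene arrays. Values of 53617 probe sets per array are on the log2 scale as the authors deposited them. Per the submitters' processing notes, RMA, the Transcriptome Analysis Console and Affymetrix Expression Console 1.4.1 were used. The role of each tool and the genome build of the probe sets are not given in the sources used here. In general, RMA makes the distributions of the arrays alike, which largely removes a common shift, and it compresses changes near background.

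The platform annotation gave symbols for 16098 probe sets, brought up to date through the RefSeq gene table (GRCh38), which also gave chromosome and gene order. A probe set was kept if it exceeded the 40th percentile of its array in 3 or more arrays. A gene took its brightest probe set, which left 12147 genes. With limma 3.58.1 in R 4.3.3, all 15 arrays entered 1 fit with a mean for each group (lmFit, eBayes, 10 residual degrees of freedom). Benjamini-Hochberg adjustment ran over all genes within a comparison, and calls were made below 0.05. Each SE is limma's and is the same for every comparison of a gene. Precision is limited by the number of arrays. The figures were made in matplotlib 3.10.9.

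Named genes were CASC15 and LINC genes called against parental or among clones (up to 30 by size), the brightest, those beside the limit, neighbours, up to 6 other long noncoding RNAs called in all clones, and genes whose probe sets disagree. LINC02210 fell past the 30 and was named for completeness. The members and lists were chosen with earlier results of these data known. Same-numbered arrays deviated together (r over 0.1) in 0 of 12 pairs with parental and in 10 of 18 among clones, including all 6 of replicate 1 (r from 0.14 to 0.46). Every number had r over 0.1 in 1 of 10 group pairs, clones 1 and 6, which is only a hint of pairing there. The main fit did not pair arrays by replicate number. A replicate block was tried only as a separate setting, which was not limited to clones 1 and 6. The fit was tried on simulated data for clone 1 against parental, with 200 of 12147 genes changed and independent noise. It recovered 0.585 of 1.5-fold, 0.958 of 2-fold and 0.997 of 4-fold changes, and 0.0520 of the calls were false. The real comparison called 2092 genes, and the filter and the choice of probe set were not simulated. These shares are therefore no error rates of the data.

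The results were recomputed without the dim filter and with a stricter one (60th percentile), after renewed quantile normalization or median centring, with a replicate block, without each array, with the 6 arrays of a comparison alone, with trend and robust eBayes, with array weights, with a gene's probe sets averaged, at an adjusted p of 0.01, with a 2-fold limit and with other limits on the mean level. No per-sample column was left unused.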

Additional observations from a re-analysis of the deposited data

Results flagged for a closer look

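The clones' changes differed among themselves for 20 LINC genes, by limma's F test over the 4 clones with Benjamini-Hochberg adjustment over all genes (adjusted p below 0.05). For each, the difference of the pair of clones farthest apart is given (first minus second, log2), and each was called in the pair's own test. The sizes were -1.77 for LINC01963, -1.05 for LINC00674, -0.82 for LINC01128, -0.67 for LINC00174, -0.63 for LINC01278 and -0.57 for LINC01347, all clone 2 minus clone 3. Between clones 3 and 6 they were 1.19 for LINC00997, 0.78 for LINC00265, 0.69 for LINC00701, 0.51 for LINC01000, 0.49 for LINC00999, 0.42 for LINC01061 and -0.92 for LINC00858. Between clones 1 and 3 they were 0.93 for LINC00641, -0.80 for LINC00847, 0.67 for LINC00630 and 0.58 for LINC00987. Between clones 1 and 6 they were 0.63 for LINC00623 and 0.56 for LINC00294, and between clones 2 and 6 the difference was 0.43 for LINC02210. LINC00997 and LINC00858 are members through the groups where they were high, so their differences are no independent result. Groups of 3 arrays were not tested for single outlying arrays.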

How the results depend on the processing

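Leaving out each array in turn gave 1 to 4 higher and 10 to 13 lower LINC genes in clone 1, 2 to 5 and 11 to 16 in clone 2, 2 to 5 and 3 to 9 in clone 3, and 1 to 5 and 14 to 17 in clone 6. The F test called 13 to 22, and the pairs 0 each time (clones 1 and 2), 10 to 20 (1 and 3), 4 to 8 (1 and 6), 10 to 16 (2 and 3), 0 to 4 (2 and 6) and 7 to 14 (3 and 6). The lowest counts came without parental replicate 3 or clone 3 replicate 3 (lower in clone 3), without parental replicate 2 (higher in clone 6), without clone 3 replicate 2 (F test), without clone 3 replicate 1 (clones 1 and 3), and without clone 2 replicate 2 or clone 6 replicate 2 (clones 2 and 6). With array weights 6, 5 and 7 rose in clones 1, 3 and 6. At an adjusted p below 0.01, 1, 2 and 1 rose in clones 1, 2 and 6, 3 fell in clone 3, the F test called 11, and the pairs 10 (1 and 3), 4 (1 and 6), 9 (2 and 3), 0 (2 and 6) and 7 (3 and 6). With a 2-fold limit 0, 0, 1 and 0 rose and 2, 2, 0 and 1 fell, and the same pairs gave 2, 0, 2, 0 and 2. With a limit of 5 on the mean (54 LINC genes), 2 rose in clone 2 and 1 in clone 6. With a limit of 4 (151 genes), 5 rose in clone 1 and 7 in clone 2. Without a limit (249 genes), 5, 9, 7 and 7 rose and clones 2 and 6 differed in 5. With only the arrays of the comparison 5 rose in clone 3, and clones 1 and 6 differed in 5 and clones 2 and 6 in 0. With quantile normalization 5 fell in clone 3 and 8 rose in clone 6, and with the mean of probe sets 5 fell in clone 3. In clone 6, 2 rose without the dim filter, 7 with a stricter one and 2 after centring, and the stricter filter gave 5 for clones 2 and 6. The replicate block gave 6 for clones 2 and 6 in place of 3. It ended the calls of LINC01000 in clone 3 and LINC00693 in clone 6. Between clones 1 and 6 it gave 8 as before. Whether the replicate numbers pair the samples is not known. With the mean of its probe sets, LINC00847 in clone 2 turned to 0.012 (adjusted p = 0.958). The cause of these shifts was not tested, except that a stricter p or fold limit calls fewer genes by construction. Apart from leaving out arrays, all other counts stayed within 1.5 times.

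Renewed quantile normalization moved the lower share of all calls to 52.1%, 52.2%, 50.3% and 49.7% in clones 1, 2, 3 and 6, from 65.0%, 67.7%, 63.8% and 65.5%. Among calls of the 93 LINC genes the lower share was 76.5%, 72.2%, 62.5% and 65.2% with this setting. No scaling moved the median of all genes by more than 0.1. Signal over background limits the group: 39 of the 93 LINC genes lay between 4.5 and 5, little above the array median.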
